A study of Mus musculus with 12 samples.

Results

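Class I and class IIa histone deacetylases were followed in the hippocampus of adult male mice exposed to ethanol through the dam, to maternal separation after birth, to both, or to neither. The members were chosen by gene name and comprise 8 genes: Hdac1, Hdac2, Hdac3 and Hdac8 of class I and Hdac4, Hdac5, Hdac7 and Hdac9 of class IIa. They account for 75 of 113580 transcripts that could be matched to annotation and 8 of 35580 genes. All mice were C57BL/6 (C57BL/6J in the methods of the study) and were killed at postnatal day 70. Control mice came from dams that drank water and were left with the dam. In the ethanol group the dam could choose to drink 10% ethanol in water during gestation, and by the methods of the study also up to postnatal day 10, which overlaps the days of separation. In the stress group each pup was isolated for 3 h a day between postnatal days 2 and 14, and the ethanol + stress group met both treatments. There were 3 mice in each of the 4 groups. Intake was voluntary. By the methods of the study part of each litter was stressed, so littermates may stand in a stressed and an unstressed group, and the labels tie no mouse to a litter. No litter term could be fitted, and p values measure the spread between these mice. Total RNA was depleted of rRNA and sequenced from stranded libraries.

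Histone deacetylases take acetyl groups off lysines of histone tails, which closes chromatin and lowers transcription. Class I enzymes are mostly nuclear and act inside corepressor complexes: Hdac1 and Hdac2 in Sin3, NuRD and CoREST complexes, Hdac3 with the corepressor Ncor1, and Hdac8 apart from these, with cohesin as a known substrate. Class IIa proteins have weak catalytic activity of their own and bind MEF2 transcription factors, and kinases of the CaMK, PKD and SIK families phosphorylate them so that 14-3-3 proteins hold them in the cytoplasm. In hippocampus Hdac2 and Hdac3 are known as brakes on memory formation, and Hdac4 and Hdac5 as activity-dependent regulators of synaptic genes.

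Several members are made as isoforms that differ in what they can encode, and the results turn on some of these. Sequences below are reference transcripts of GENCODE vM21 (build GRCm38), written 5′ to 3′ in the sense of the gene. Hdac9 lies on chromosome 12 (34047580 to 34917095, minus strand) and has a short form that ends before the deacetylase domain, known as MITR. The short coding form Hdac9-201 runs on from an exon for 48 more coding bases before its stop codon, where the long form Hdac9-205 splices to the next exon. Capitals mark the 48 bases that differ after 24 shared bases.
Hdac9-201: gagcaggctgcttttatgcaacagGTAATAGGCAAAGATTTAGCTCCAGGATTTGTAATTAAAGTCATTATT
Hdac9-205: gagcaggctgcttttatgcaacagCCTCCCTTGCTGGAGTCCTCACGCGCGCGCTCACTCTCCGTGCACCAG
A further short form, Hdac9-203, skips exon 7 of Hdac9-201 (chr12:34407766-34407897, 132 bases or 44 codons, which keeps the reading frame). Capitals mark exon 7 in the first sequence, and in the second the 24 bases that follow the junction where exon 7 is missing.
Hdac9-201: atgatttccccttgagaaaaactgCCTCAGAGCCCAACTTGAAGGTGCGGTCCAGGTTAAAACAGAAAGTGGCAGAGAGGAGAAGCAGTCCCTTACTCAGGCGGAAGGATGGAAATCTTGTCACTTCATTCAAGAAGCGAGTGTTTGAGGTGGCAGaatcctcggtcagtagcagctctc
Hdac9-203: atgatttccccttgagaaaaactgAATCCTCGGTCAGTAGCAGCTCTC
Hdac5 lies on chromosome 11 (102194432 to 102230166, minus strand). Its second most abundant transcript, Hdac5-205, holds an extra exon (chr11:102213925-102214036, 112 bases, not a multiple of 3) and is annotated as a target of nonsense-mediated decay with a reading frame of 64 codons. Capitals mark the 98 coding bases of this exon, and the lower-case letters start with the stop codon.
Hdac5-205: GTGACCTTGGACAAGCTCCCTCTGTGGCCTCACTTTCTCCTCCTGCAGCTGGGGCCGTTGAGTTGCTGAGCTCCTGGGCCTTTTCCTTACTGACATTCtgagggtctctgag

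For each transcript the authors estimated TPM with kallisto, an abundance that allows for transcript length, and scaled it from library to library. Library totals run from 889222 to 1173650 TPM, and steps in the low values place the depth at 12000000 to 14700000 read pairs. The 3 libraries with the highest sums are ethanol 2, ethanol + stress 2 and ethanol + stress 3. All 10 markers of hippocampal neurons were present in the tissue. The 5 blood genes (hemoglobins and Alas2, an enzyme of heme synthesis) were each called higher in ethanol and in ethanol + stress mice, and their summed level was 1603 to 2022 TPM in control, 2593 to 3392 in stress, 3146 to 6815 in ethanol and 2454 to 6480 in ethanol + stress mice. The 7 choroid plexus genes ranged in sum from 41.2 to 7253 TPM between mice and none of them was called. In whole tissue, fewer cells of a type and less RNA per cell cannot be told apart.

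All 8 genes were expressed in every mouse. Hdac2 had the highest level, with a mean of 77.4 TPM ± 5.67 (SD, n = 12), and Hdac5 was next with 77.3 TPM ± 7.03. Hdac3 followed with 61.6 TPM ± 4.22. Hdac4 (29.3 TPM ± 3.26) and Hdac9 (28.6 TPM ± 2.20) were intermediate. Hdac1 had 22.3 TPM ± 2.48, Hdac8 had 13.4 TPM ± 1.60 and Hdac7 had 4.06 TPM ± 0.85. Neighbours in this order were compared within mice with an exact two-sided sign-flip permutation test on log2 ratios of TPM, with p values adjusted over 7 pairs. The order was taken from the same 12 mice, so the p values are no independent test of it. Mice of all 4 groups were treated as independent, although littermates may be among them. Hdac2 and Hdac5 did not differ beyond their spread (mean log2 ratio 0.003 ± 0.23 SD, higher in 7 of 12 mice, adjusted permutation p = 0.966), nor did Hdac4 and Hdac9 (0.03 ± 0.23, 7 of 12 mice, adjusted permutation p = 0.746). The other 5 neighbours held their order in 12 of 12 mice, each with an adjusted exact p of 0.000684, from the smallest p these permutations can give (0.000488). The nearest of these were Hdac5 and Hdac3, which differed by 0.33 on the log2 scale. Hdac7 was also the most variable, with a coefficient of variation of 20.9% over the 12 mice, and Hdac3 the least, with 6.85%. With every library rescaled to the same total Hdac7 was again the most variable (24.2%), but the least was Hdac5 (4.365%), with Hdac3 at 5.58%.

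**Figure D1:**
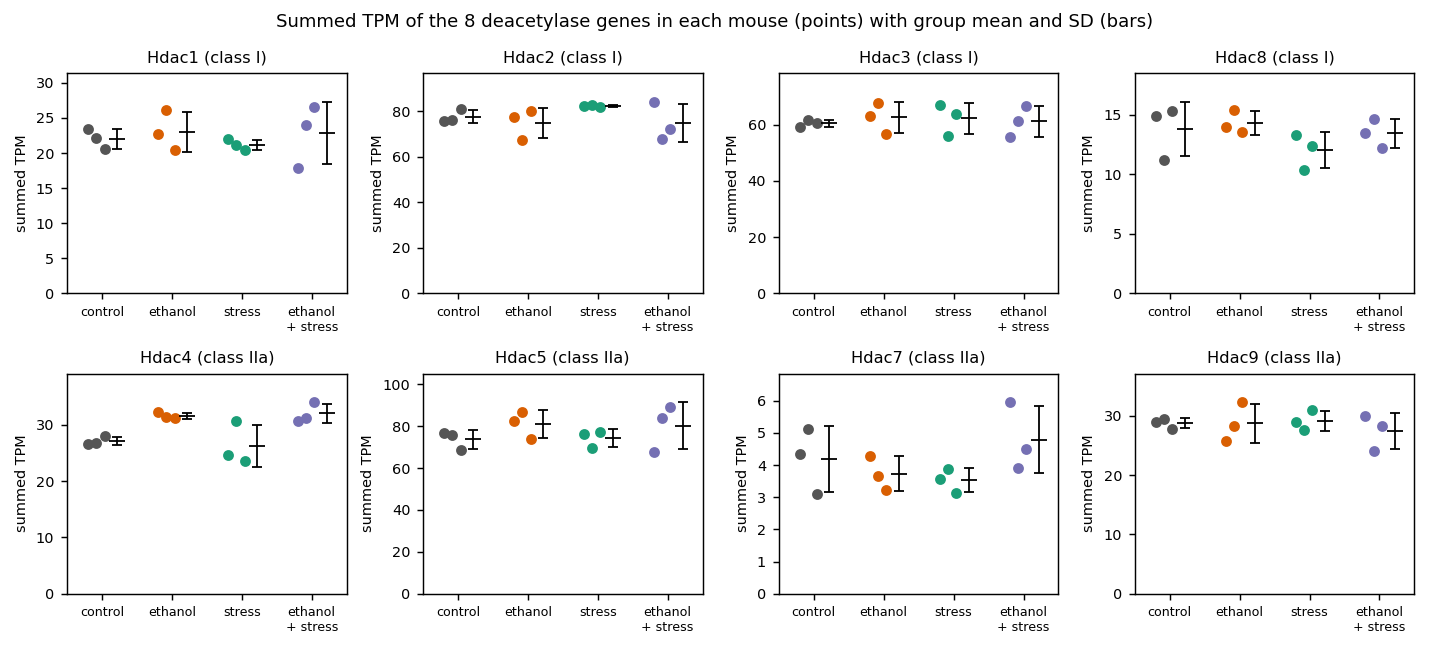
Summed TPM of each of the 8 genes (vertical axes, starting at 0) in every mouse of the 4 groups (points), with the group mean and SD (bars, n = 3). Hdac4 lies between 30.8 and 34.0 TPM in the 6 ethanol-exposed mice and between 23.6 and 30.6 TPM in the other 6, while the other 7 genes overlap between ethanol-exposed and other mice.

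Each treatment was compared with control with limma on log2(TPM + 0.5) of the summed gene, and a gene was called at an unadjusted p under 0.01, the threshold of the study, with Benjamini-Hochberg values over all 18434 genes tested. None of the 8 members was called for ethanol, where 0.678% of all genes were, for stress (0.51% of all genes), for ethanol + stress (0.971%) or for the interaction of ethanol and stress (0.461%). At an unadjusted p under 0.05 the counts were 0, 0, 1 and 0 of 8, the 1 being Hdac4, beside 3.63%, 2.4%, 5.37% and 2.69% of all genes. With read pairs recovered from the TPM in place of TPM, limma again called 0 of 8 in each, beside 0.406%, 0.216%, 0.723% and 0.197% of all genes. The median log2 fold change of the members was 0.05 for ethanol, -0.02 for stress and 0.02 for ethanol + stress, beside 0.02, 0.004 and 0.02 over all genes. For the 7 genes other than Hdac7, the 95% confidence intervals of the 3 treatment effects all lay between -0.50 and 0.45 on the log2 scale. For Hdac7 they reached from -0.64 to 0.62.

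**Figure D2:**
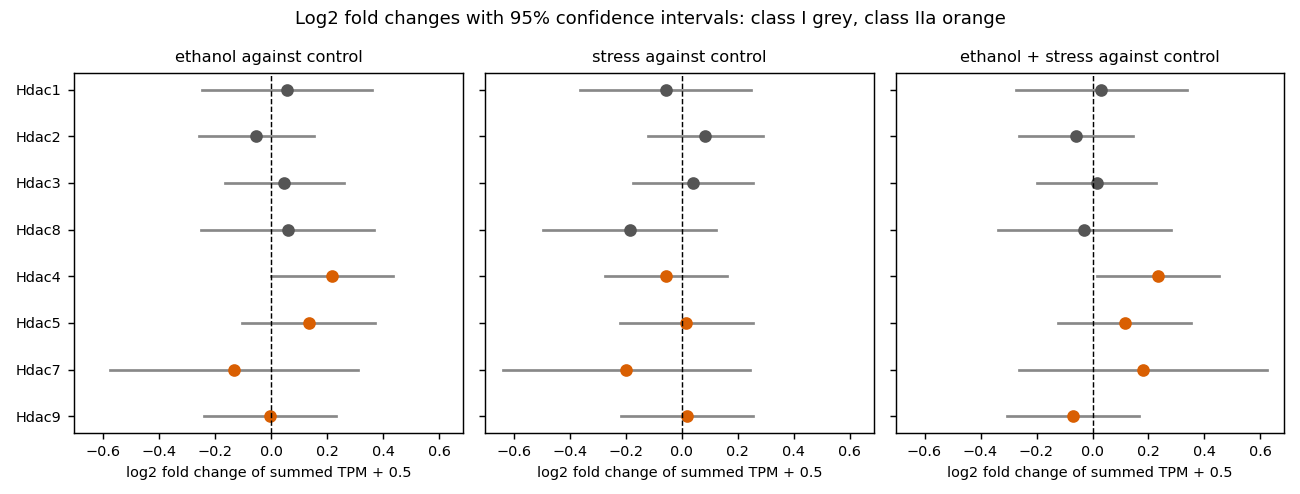
Log2 fold change of summed TPM + 0.5 (horizontal axis) of the 8 genes for ethanol, stress and ethanol + stress against control, with 95% confidence intervals (lines) from limma, class I in grey and class IIa in orange. The interval of Hdac4 for ethanol + stress lies above 0, from 0.02 to 0.45, and the others include 0.

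Among class I genes, Hdac1 (chr4:129516104-129542713), a catalytic subunit of Sin3 and NuRD complexes, had 23.4, 22.1 and 20.6 TPM in control mice. It had 22.6, 26.1 and 20.4 TPM in ethanol mice and 21.95, 21.1 and 20.4 TPM in stress mice. The ethanol + stress mice were at 17.9, 23.99 and 26.6 TPM, the widest spread of any group, holding both the lowest and the highest value of the 12. The log2 fold changes were 0.06 for ethanol (SE 0.14, limma adjusted p = 0.997), -0.06 for stress (SE 0.14, adjusted p = 1) and 0.03 for ethanol + stress (SE 0.14, adjusted p = 0.961).

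Hdac2 (chr10:36974544-37001889), the partner of Hdac1 in the same complexes, had 75.6, 76.4 and 80.8 TPM in control mice. Values in stress mice were tightly grouped at 82.4, 82.7 and 81.7 TPM. Those in ethanol mice were 77.6, 67.4 and 79.9 TPM, and those in ethanol + stress mice 84.1, 67.9 and 72.2 TPM. All 3 stress mice lay above all 3 control mice, as 3.81% of all genes did, but the log2 difference of 0.08 (SE 0.09, limma adjusted p = 1) was within the spread pooled over groups. The 3 lowest values belonged to the 3 libraries with the highest sums, at 67.4 to 72.2 TPM against 75.6 to 84.1 TPM in the other 9. In the same 3 libraries Hdac1 was at its 3 highest values (23.99 to 26.6 against 17.9 to 23.4 TPM) and so was Hdac5 (84.0 to 89.1 against 67.7 to 82.3 TPM). Without them, which leaves 1 ethanol + stress mouse that is assumed to vary like the other groups, the ethanol + stress difference was -0.29 for Hdac1, 0.12 for Hdac2 and -0.12 for Hdac5, and none of the 3 was called.

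Hdac3 (chr18:37935844-37955016), the enzyme of the Ncor1 complex, ranged from 59.2 to 61.6 TPM in control mice. It ranged from 56.9 to 67.8 TPM in ethanol, from 56.1 to 66.9 TPM in stress and from 55.6 to 66.8 TPM in ethanol + stress mice, so every treated group enclosed the controls. Its fold changes were 0.05, 0.04 and 0.01 on the log2 scale (SE 0.10 each). Hdac8 (chrX:102284639-102505359), which deacetylates cohesin, had 14.9, 11.2 and 15.3 TPM in control mice. The stress mice showed 13.3, 10.3 and 12.4 TPM, and the log2 difference of -0.19 (SE 0.14, limma adjusted p = 1) was the largest in size among class I genes. Ethanol and ethanol + stress mice had 12.2 to 15.4 TPM, within the range of the controls except for the highest.

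Among class IIa genes, Hdac4 (chr1:91928779-92195699), which shuttles between nucleus and cytoplasm in neurons, had 26.6, 26.8 and 28.0 TPM in control mice. Stress mice were lower or higher than these, at 24.6, 30.6 and 23.6 TPM. It had 32.2, 31.4 and 31.3 TPM in ethanol mice and 30.8, 31.3 and 34.0 TPM in ethanol + stress mice. Every ethanol mouse was above every control mouse, as were 5.06% of all genes, and so was every ethanol + stress mouse, as were 5.63%. The log2 fold change was 0.22 for ethanol (SE 0.10, 95% interval -0.001 to 0.44, limma adjusted p = 0.997) and 0.23 for ethanol + stress (SE 0.10, interval 0.02 to 0.45, adjusted p = 0.791). Neither was called.

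All 6 ethanol-exposed mice were above all 6 others in Hdac4, which held for 0.239% of all genes, although the nearest values were 30.78 TPM in ethanol + stress 1 and 30.63 TPM in stress 2. A contrast of these 6 mice with the other 6, added after the values were seen, gave 0.25 (SE 0.07, limma adjusted p = 0.76). It was called, as were 1.12% of all genes. The call was lost when any of control 1, ethanol 1, stress 1, stress 3 or ethanol + stress 3 was left out. It was also lost with every library rescaled to the same total (0.15) and without the 3 libraries of highest sum (0.23).

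Part of the Hdac4 difference lay in short transcripts. The main coding transcript Hdac4-202, of 8100 bases and 1076 residues, had 12.96, 10.2 and 12.8 TPM in control mice and 12.6, 10.9 and 11.8 TPM in ethanol mice (log2 fold change -0.02, SE 0.15, limma adjusted p = 0.998). The 3 long transcripts 201, 202 and 208 summed to 15.3 TPM ± 0.66 (SD, n = 3) in control, 14.2 ± 1.93 in stress, 14.5 ± 2.67 in ethanol and 14.4 ± 1.13 in ethanol + stress mice. The short transcripts 205, 206 and 212, of 797 to 938 bases, summed to 11.2 TPM ± 1.09, 10.6 ± 2.20, 14.3 ± 2.68 and 15.9 ± 2.71 in the same order. These 2 groupings were made after the values were seen. They leave out retained-intron transcripts and Hdac4-204 and Hdac4-207 (407 and 410 bases), which were at 0 in 9 and 6 of the 12 mice. The means of these 2 were 0 and 0.24 TPM in control and 0.37 and 0.74 in stress mice. They were 0.96 and 1.28 TPM in ethanol and 0.56 and 0.19 in ethanol + stress mice. In the short transcripts 5 of the 6 ethanol-exposed mice, at 13.3 to 18.7 TPM, lay above the other 6 (8.76 to 13.06 TPM), the lowest of the 5 by a small margin. The exception was ethanol 3, which had 11.2 TPM in the short transcripts and 17.4 TPM in the long ones, the highest of the 12 mice. The fragment Hdac4-206 (312 residues) changed by 0.48 for ethanol (SE 0.35, limma adjusted p = 0.975) and Hdac4-212, which has no reading frame, by 0.56 (SE 0.35, adjusted p = 0.973), neither being called. Hdac4-205 (112 residues) had the opposite sign for ethanol, -0.48 (SE 0.28, limma adjusted p = 0.957), and 0.006 for ethanol + stress, and was not called. The short transcripts held 35.6% to 55.0% of the gene's TPM but 5.98% to 10.9% of its read pairs, because TPM weights each read pair by the inverse of transcript length. In read pairs the gene did not separate: with a size factor per library, 903 to 988 read pairs in control mice stood beside 857 to 998 in ethanol, 789 to 1040 in stress and 916 to 1007 in ethanol + stress mice. The log2 fold change on that scale was -0.02 for ethanol and -0.001 for ethanol + stress. The contrast of 6 mice with 6 gave 0.04 and was not called. In the contrast of 6 with 6 mice the 5 blood genes were called higher (median 0.82), 1 of 10 markers of hippocampal neurons was called lower (median -0.14, 3 of 10 above 0), and the 7 choroid plexus genes were below 0 with none called (median -0.80), beside a median of 0.02 over all genes. The part of these in the Hdac4 sum was not tested.

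**Figure D3:**
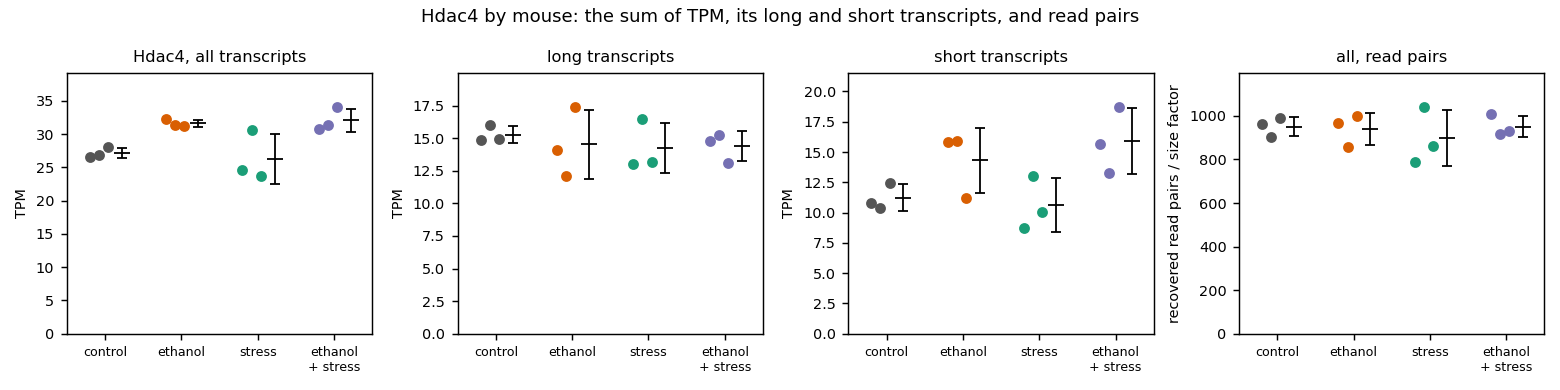
Hdac4 in every mouse (points) with the group mean and SD (bars, n = 3): TPM of all transcripts, of the long transcripts 201, 202 and 208, of the short transcripts 205, 206 and 212, and recovered read pairs of the whole gene divided by the size factor of the library. The 6 ethanol-exposed mice are highest in the first panel, and the 4 groups overlap in the long transcripts and in read pairs.

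Hdac5 (chr11:102194432-102230166), the close relative of Hdac4, had 76.7, 75.6 and 68.7 TPM in control mice and 82.3, 87.0 and 73.7 TPM in ethanol mice. Stress mice had 76.2, 69.7 and 77.5 TPM, and ethanol + stress mice 67.7, 84.0 and 89.1 TPM. The log2 fold changes were 0.13 for ethanol (SE 0.11, limma adjusted p = 0.997), 0.02 for stress (SE 0.11, adjusted p = 1) and 0.12 for ethanol + stress (SE 0.11, adjusted p = 0.799), and the groups overlapped. With every library rescaled to the same total, the ethanol + stress value was -0.02.

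Hdac7 (chr15:97792664-97844502), best known from blood vessels and the thymus, was the lowest member, with 3.1 to 5.11 TPM in control, 3.15 to 3.87 in stress, 3.22 to 4.30 in ethanol and 3.91 to 5.95 in ethanol + stress mice. Its interaction of 0.51 (SE 0.29, limma adjusted p = 1) was the largest in size of the 8 genes. Hdac9 (chr12:34047580-34917095) had 27.8 to 29.5 TPM in control mice, 25.8 to 32.3 in ethanol, 27.6 to 31.0 in stress and 24.1 to 30.0 in ethanol + stress mice. Its fold changes were -0.004, 0.02 and -0.07 on the log2 scale (SE 0.11 each), the smallest in size for ethanol among the members.

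Class I genes were each carried by 1 coding transcript. Transcript 201 held 90.4% of the summed TPM of Hdac1 on average, 98.4% of Hdac2, 96.0% of Hdac3 and 87.2% of Hdac8. Class IIa genes were spread over several. For Hdac5, the coding transcript Hdac5-204 (1115 residues) held 30.4% (14.1 to 30.5 TPM), and Hdac5-202 (1102 residues) held 17.3% (9.12 to 18.3 TPM). The decay target Hdac5-205 with the extra exon shown above held 24.3% (13.5 to 23.8 TPM and 370 to 781 read pairs). Its share was 24.5% ± 2.36 (SD, n = 3) in control mice and ran from 17.7% to 30.1% over all mice, both extremes being stress mice. It was not called in any treatment (log2 fold change 0.05 for ethanol, -0.14 for stress and 0.26 for ethanol + stress, SE 0.19 each). The retained-intron transcript Hdac5-217 held a further 10.2%. For Hdac7, a retained-intron transcript at the 3′ end of the gene, Hdac7-211, held 24.8% and the coding Hdac7-204 held 13.2%, with 0 read pairs, to 2 decimals, in 3 mice to 32.9 in the highest.

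For Hdac9 the short forms led. Hdac9-201 (588 residues) held 41.2% and Hdac9-208 (560 residues) held 33.6% of its TPM, and together with Hdac9-203 the short forms made up 73.5% to 87.4% in each mouse. The 5 transcripts that read on into the deacetylase exons, as Hdac9-205 above, made up 10.3% to 21.8% by TPM and 19.8% to 31.6% by read pairs. Their mean share by TPM was 18.0% ± 1.90 (SD, n = 3) in control mice. The lowest share was in stress 1 and the highest in ethanol 3, the highest control share being 20.02%. Hdac9-201 itself changed by -0.19 for ethanol, -0.15 for stress and -0.29 for ethanol + stress (SE 0.13 each, limma adjusted p = 0.975, 1 and 0.888) and was not called.

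**Figure D4:**
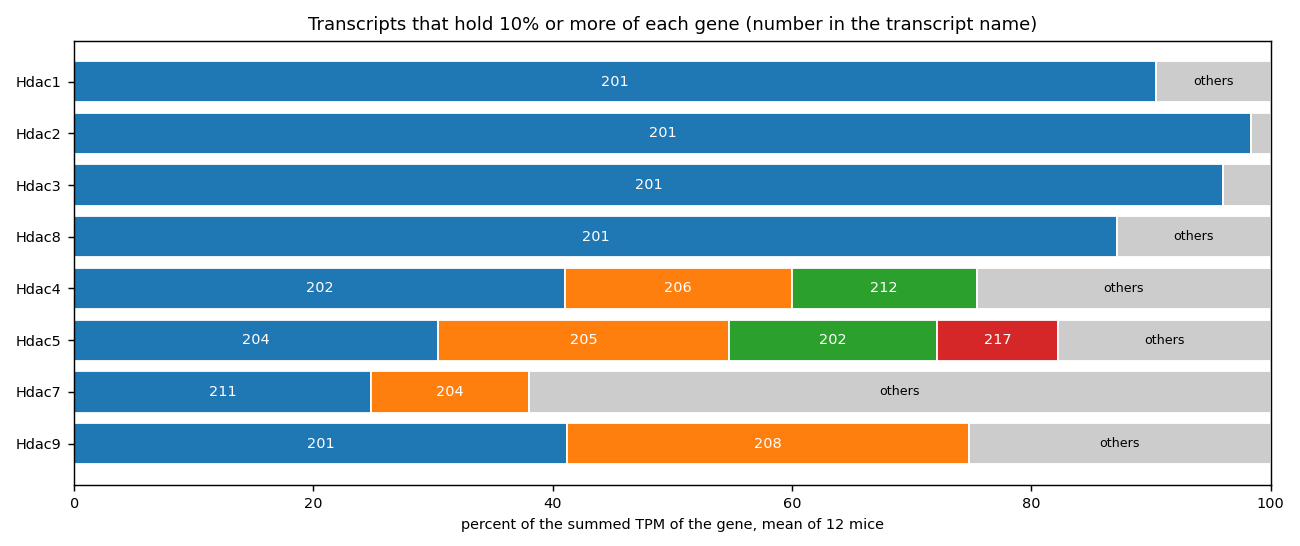
Mean share of each gene's summed TPM (horizontal axis, percent, mean of 12 mice) held by its transcripts of 10% or more, labelled with the number in the transcript name, and by all other transcripts in grey. Transcript 201 holds 87.2% to 98.4% of each class I gene, and the top transcript of each class IIa gene holds 24.8% to 41.2%.

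Of the 75 member transcripts, 54 passed the filter of 0.1 TPM in 6 libraries, and 5 were listed at 0 in every library. Calls among the 54 were 3 for ethanol, where 1.25% of all transcripts were called, 3 for stress (0.918%), 2 for ethanol + stress (1.22%) and 1 for the interaction (0.862%). The ratio of a transcript to the rest of its gene was called for 2 of the members' transcripts in each of the 4 comparisons, beside 1.31%, 1.05%, 1.28% and 0.971% of all ratios. These calls fell on 5 transcripts: the minor forms Hdac1-202, Hdac1-205, Hdac1-207 and Hdac9-203, and Hdac7-211. Of these, Hdac1-205, Hdac1-207 and Hdac9-203 passed the filter through the treated mice, their control mice being at or near 0. No member had an adjusted p under 0.05.

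Hdac1-205 (chr4:129518083-129522790), a retained-intron transcript of 810 bases with no reading frame, had 0 read pairs, to 2 decimals, in the 3 control mice. It had 4.65, 6.31 and 6.96 read pairs in ethanol mice, 3.79, 1.99 and 2.07 in stress mice and 9.35, 2.55 and 5.52 in ethanol + stress mice. Counts up to 3 read pairs cannot be told from 0 by counting error alone, and 3 of the 9 treated mice were below that. Against this floor in control mice (0.63 TPM), the mean of 1.17 TPM in ethanol mice was 1.86 times as high. That of 1.14 TPM in ethanol + stress mice was 1.805 times as high. These ratios leave out the spread of the treated mice, so they are no lower bounds on a fold. The fitted log2 difference, which depends on the added 0.5 TPM, was 1.73 for ethanol (SE 0.32, limma adjusted p = 0.351) and 1.63 for ethanol + stress (SE 0.32, adjusted p = 0.472), both called. For stress it was 0.99 (SE 0.32, adjusted p = 1) and was not called. All 9 treated mice were above all 3 control mice in this transcript and in Hdac9-203, 2 of 54, beside 0.41% of all transcripts. Both passed the filter through the treated mice, so this count describes them and gives no support to a treatment difference. The same 3 control mice stand in every comparison.

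Hdac1-207 (chr4:129522638-129524584), a further retained-intron transcript, had 0 read pairs in the 3 control mice and in ethanol + stress 1. It had 1.79, 2.08 and 3.03 in ethanol mice, 5.2, 3.01 and 2.54 in stress mice, and 2.51 and 2.36 in the other ethanol + stress mice. The group means, at 0.45 TPM in ethanol, 0.70 TPM in stress and 0.33 TPM in ethanol + stress mice, lay below or little above the floor of 3 read pairs in control mice (0.64 TPM), so no fold is given. The fitted differences depend on the added 0.5 TPM. By these it was called for ethanol (0.92, SE 0.28, limma adjusted p = 0.775) and stress (1.24, SE 0.28, adjusted p = 0.845), and its interaction was -1.50 (SE 0.40, adjusted p = 1). The ethanol call was lost when any 1 control or ethanol mouse was left out. It was also lost with 1 TPM added in place of 0.5 and with the replicate number as a block. Hdac1-202, also a retained-intron transcript, moved the other way: it had 2.04 to 3.501 read pairs in control mice and 0 in all stress mice (log2 difference -1.22, SE 0.37, limma adjusted p = 1). This call was lost when any 1 control or stress mouse was left out. Both groups are near the floor, so no fold is given.

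All 6 retained-intron transcripts of Hdac1 together, a grouping made after the values were seen, held 5.07% to 6.92% of the gene's TPM in control mice. They held 7.10% to 19.5% in ethanol, 7.58% to 9.39% in stress and 9.12% to 12.6% in ethanol + stress mice. The sum contains Hdac1-205 and Hdac1-207, described above for being at 0 in the controls, so its higher share in treated mice is no separate result. This rests on 4.58 to 7.50 read pairs per control library and 7.64 to 19.6 per treated library, and the coding Hdac1-201 was not called (log2 difference -0.06 for ethanol, SE 0.17, limma adjusted p = 0.99). Over all genes, retained-intron transcripts held 3.098% to 3.16% of TPM in control, 2.98% to 3.16% in stress, 3.29% to 3.33% in ethanol and 3.04% to 3.17% in ethanol + stress mice. The share of transcripts listed at 0 was 46.0% to 47.5% in control, 44.5% to 47.1% in stress, 43.4% to 44.3% in ethanol and 43.6% to 45.7% in ethanol + stress mice. The part of either in the Hdac1 values was not tested.

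Hdac9-203 (chr12:34373827-34528304), the short coding form of 544 residues without exon 7, was the best supported of the called transcripts in read pairs. It had 0, 1.39 and 0 read pairs in control mice. It had 22.1, 12.6 and 9.51 in ethanol mice, 38.7, 5.26 and 21.7 in stress mice and 6.88, 28.7 and 17.0 in ethanol + stress mice, all above the floor of 3 read pairs. The log2 differences were 1.63 for ethanol (SE 0.50, limma adjusted p = 0.778), 1.86 for stress (SE 0.50, adjusted p = 0.913) and 1.74 for ethanol + stress (SE 0.50, adjusted p = 0.768). These fitted values depend on the added 0.5 TPM. The ratios of read pairs to those of control mice, summed over 3 libraries and divided by depth, are a different quantity and were 41.0 (95% interval 6.98 to 1655), 60.8 (10.5 to 2437) and 49.2 (8.46 to 1981). The exact intervals cover counting error only and rest on 1 read pair in control mice. These read pairs are recovered from kallisto estimates, which divide reads among overlapping transcripts, and were rounded. The intervals cover neither that division nor the spread between mice. The ethanol call was lost without any 1 control mouse, ethanol 1 or ethanol 2, the stress call without control 1, control 3, stress 1 or stress 3, and the ethanol + stress call without control 1, control 3, ethanol + stress 2 or ethanol + stress 3. The ethanol and ethanol + stress calls were also lost with 1 TPM added in place of 0.5 and with the replicate number as a block. Without the 3 libraries of highest sum the ethanol + stress value was 0.96 and was not called.

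Exon 7 is also missing from a long form, Hdac9-206 (1023 residues), looked at for that reason after the values were seen. This transcript had 31.5, 71.9 and 52.2 read pairs in control mice and 17.9 to 61.4 in treated mice, and was not called (log2 difference -0.15 for ethanol, -0.52 for stress and -0.66 for ethanol + stress, SE 0.37 each). Both transcripts together held 5.03%, 12.2% and 8.67% of the TPM of the 8 forms that span exon 7 in control mice. The same share was 9.92% to 14.0% in ethanol, 9.80% to 13.1% in stress and 5.90% to 14.6% in ethanol + stress mice, so each treated group overlapped the controls. By read pairs the means were 7.12% ± 3.01 (SD, n = 3) in control, 7.41% ± 0.35 in stress, 8.20% ± 0.73 in ethanol and 6.70% ± 1.94 in ethanol + stress mice.

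**Figure D5:**
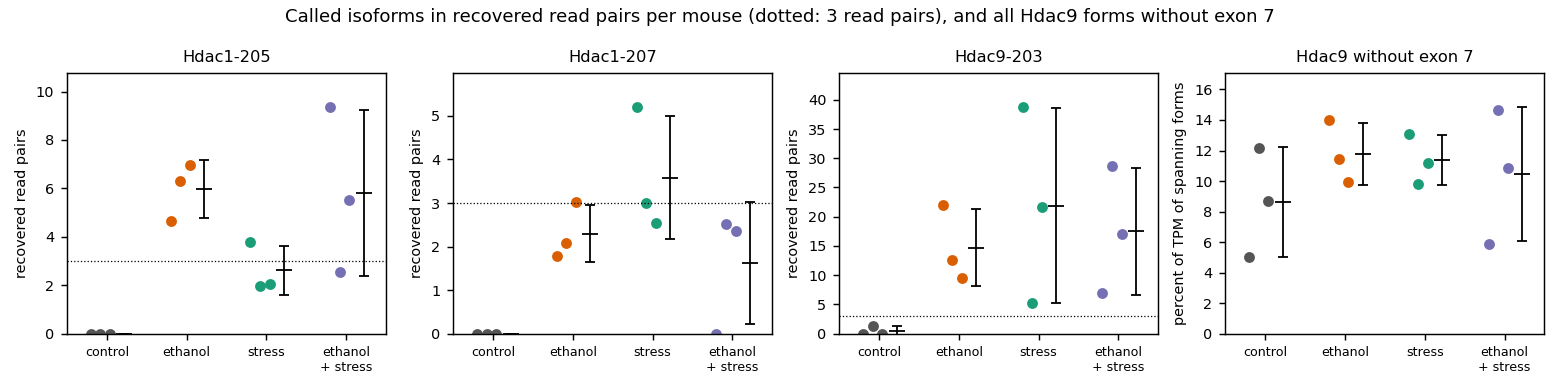
Recovered read pairs of Hdac1-205, Hdac1-207 and Hdac9-203 in every mouse (points) with the group mean and SD (bars, n = 3) and the floor of 3 read pairs (dotted line), and the percent of TPM of Hdac9 forms spanning exon 7 that lack it. The 3 control mice are at or near 0 read pairs in each transcript, and the exon 7 share of control mice (5.03% to 12.2%) overlaps every treated group.

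The ratio of Hdac7-211 to the rest of its gene was called for the interaction, while the transcript itself was not. It held 22.7%, 45.8% and 27.6% of Hdac7 TPM in control mice, 28.0%, 7.9% and 18.3% in ethanol mice, 19.8%, 18.5% and 8.4% in stress mice and 35.1%, 34.5% and 31.5% in ethanol + stress mice. The interaction of its ratio was 1.71 (SE 0.53, limma adjusted p = 1). It rests on 2.96 to 24.9 read pairs per library, and the call was lost without any 1 of 9 of the mice, the exceptions being control 1, ethanol 1 and stress 1.

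Genes that work with the deacetylases were followed in lists, which were chosen with earlier results of these data known. None of the 10 other deacetylases (class IIb, class IV and sirtuins), the 35 corepressor complex genes or the 12 histone acetyltransferases was called in any of the 4 comparisons. Their median log2 fold changes for ethanol were 0.07, -0.01 and -0.02, beside 0.02 over all genes. The smallest p values among them were for the deacetylase Sirt5 in the interaction (-0.30, SE 0.15, limma adjusted p = 1), the acetyltransferase Kat8 in ethanol + stress mice (0.29, SE 0.13, adjusted p = 0.791) and the NuRD subunit Gatad2a in ethanol + stress mice (0.28, SE 0.13, adjusted p = 0.791). Of 26 partners and kinases of class IIa proteins, 1 was called higher for ethanol, where 0.678% of all genes were called, and 0 in the other 3 comparisons. This was Prkd2, a protein kinase D that phosphorylates class IIa deacetylases. It had 1.86, 1.44 and 2.17 TPM in control mice and 2.98, 4.33 and 3.96 TPM in ethanol mice. It had 1.07, 2.16 and 2.42 TPM in stress mice and 2.58, 3.18 and 4.09 TPM in ethanol + stress mice. The 6 ethanol-exposed mice lay above the other 6, as in 0.239% of all genes, with nearest values of 2.58 and 2.42 TPM. The difference was 0.87 for ethanol (SE 0.26, limma adjusted p = 0.997) and 0.70 for ethanol + stress (SE 0.26, adjusted p = 0.791). The salt-inducible kinase Sik1 had the smallest p of its list for stress (-0.41, SE 0.19, limma adjusted p = 1).

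For each member, the non-member gene of 5 TPM or more with the most similar log2 profile over the 12 libraries was looked up among 11233 genes, as a description. The closest were Dact3 for Hdac5 (Pearson r = 0.968, Spearman rho = 0.986), Mef2a for Hdac2 (0.961, 0.916), Tmem141 for Hdac1 (0.951, 0.916) and Mrps10 for Hdac3 (0.942, 0.937). Those for the others were Prmt8 for Hdac9 (0.933, 0.937), Map4 for Hdac7 (0.877, 0.867), Parp6 for Hdac4 (0.856, 0.888) and Gm13502 for Hdac8 (0.826, 0.734). The points share libraries that differ in their TPM sums.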

How the data were processed

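Hippocampal RNA of 12 mice was analysed, grouped by the labels. The authors assigned paired-end reads to mouse transcripts with kallisto (build mm10, with CASAVA and sleuth also named in the submitters' processing notes; versions are not given in the sources used here), and deposited a signal, TPM scaled between libraries. All 12 columns were mapped, 0 were left out. Transcripts were matched by identifier to GENCODE vM21 (113580 of 115270) and summed per gene. Genes, transcripts and transcript ratios of 0.1 TPM or more in 6 libraries entered limma 3.58.1 (lmFit, eBayes with trend, R 4.3.3) on the log2(TPM + 0.5) scale, two-sided, with 4 groups in 1 model and no block, called at an unadjusted p under 0.01, with Benjamini-Hochberg values over all features. On simulated gene sums with independent noise per gene, 84% of ethanol changes of 1 and 54% of 0.5 on the log2 scale were called. The simulation left out differences shared within a library and did not cover transcripts of few read pairs. Read pairs were recovered from steps in low values, of which 81.6% to 85.6% were whole within 0.1 read pairs. Intervals and floors cover counting error only. Named features are the 8 members, their transcripts of 10% or more or with p under 0.01, genes of the lists with p under 0.01 or the smallest p, and the closest profile. Members and lists were chosen with earlier results of these data known. Same-numbered mice were not treated as pairs in the main fit. Alternatives were other pseudocounts, filters, scalings and trend settings, fewer groups, a replicate block and each mouse left out; read pairs, removal of 3 libraries and the contrast of 6 with 6 mice were added after seeing the data. Python 3.11.15, pandas 2.3.3, numpy 2.4.6, scipy 1.17.1 and matplotlib 3.10.9 were used.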

Additional observations from a re-analysis of the deposited data

Results flagged for a closer look

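The responses of 2 transcripts were called as different between treatments by the interaction test of limma, at an unadjusted threshold. The interaction of Hdac1-207, a retained-intron transcript, was -1.50 on the log2 scale (SE 0.40, limma adjusted p = 1), and that of its ratio to the rest of Hdac1 was -1.59 (SE 0.40, adjusted p = 0.964). Hdac1-207 had 0 read pairs in 3 of 3 control mice and passed the filter through the treated mice, which had 5.2 read pairs or fewer. Counts up to 3 read pairs cannot be told from 0 by counting error alone. Only stress 1 (5.2), ethanol 3 (3.03) and stress 2 (3.01) were above that. The fitted values of Hdac1-207 depend on the added 0.5 TPM, so no difference between treatments is concluded from its interactions. The interaction of the ratio of Hdac7-211 to the rest of Hdac7 was 1.71 (SE 0.53, limma adjusted p = 1), with lower shares in single treatments than in ethanol + stress mice. None of these passed the correction over all features.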

How the results depend on the processing

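No member gene was called in the 4 comparisons of the design under any alternative. In the added contrast of 6 with 6 mice Hdac4 was called (0.25), and the call was lost in 8 of 22 alternatives: with every library rescaled to the same total, with recovered read pairs (0.037), without the 3 libraries of highest sum, and without any 1 of 5 mice (0.22 to 0.31 over all mice left out in turn). Of 606 alternative values of gene sums, 54 changed sign by less than the standard error, and 10 uncalled values changed sign by more: without the 3 libraries of highest sum, Hdac1 for ethanol + stress (-0.29), Hdac1 for the interaction (-0.20), Hdac2 for ethanol + stress (0.12), Hdac3 for ethanol + stress (-0.12), Hdac5 for ethanol + stress (-0.12), Hdac9 for ethanol + stress (0.062); with every library rescaled to the same total, Hdac3 for ethanol + stress (-0.12), Hdac5 for ethanol + stress (-0.020); with recovered read pairs, Hdac4 for ethanol (-0.017), Hdac4 for ethanol + stress (-0.001). Of 201 alternative values of the called transcripts and ratios, 132 kept their call and 69 lost it without a change of sign. The calls of Hdac1-205 for ethanol and ethanol + stress and of Hdac1-207 for stress were kept wherever they could be tested. With a minimum of 1 TPM, called genes numbered 69 for ethanol (from 125), 42 for stress (from 94), 48 for the interaction (from 85), and called transcripts numbered 315 for ethanol (from 739), 235 for stress (from 542), 355 for ethanol + stress (from 721), 209 for the interaction (from 509), and called member transcripts numbered 0 for ethanol (from 3), 1 for stress (from 3), 1 for ethanol + stress (from 2), 0 for the interaction (from 1). With no filter, called genes numbered 198 for ethanol (from 125), 131 for the interaction (from 85). With recovered read pairs, called genes numbered 64 for ethanol (from 125), 34 for stress (from 94), 114 for ethanol + stress (from 179), 31 for the interaction (from 85). With every library rescaled to the same total, called genes numbered 118 for ethanol + stress (from 179). Without the 3 libraries of highest sum, called genes numbered 130 for the interaction (from 85), and called member transcripts numbered 2 for the interaction (from 1), and called member ratios numbered 4 for stress (from 2), 1 for ethanol + stress (from 2), 1 for the interaction (from 2). With a pseudocount of 1, called member transcripts numbered 1 for ethanol (from 3), 1 for ethanol + stress (from 2). With the replicate number as a block, called member transcripts numbered 1 for ethanol (from 3), 1 for ethanol + stress (from 2), and called member ratios numbered 1 for ethanol (from 2), 1 for stress (from 2), 1 for ethanol + stress (from 2), 1 for the interaction (from 2). With a pseudocount of 0.1, called member transcripts numbered 3 for the interaction (from 1), and called member ratios numbered 4 for stress (from 2). Leaving out 1 mouse gave called genes 102 to 177 for ethanol, 85 to 101 for stress, 114 to 763 for ethanol + stress, 77 to 140 for the interaction; called transcripts 587 to 839 for ethanol, 501 to 607 for stress, 602 to 1321 for ethanol + stress, 493 to 610 for the interaction; called ratios 575 to 743 for ethanol, 494 to 600 for stress, 593 to 875 for ethanol + stress, 492 to 577 for the interaction; called member transcripts 1 to 2 for ethanol, 1 to 2 for stress, 1 to 4 for ethanol + stress, 1 to 2 for the interaction; called member ratios 1 to 2 for ethanol, 1 to 3 for stress, 1 to 3 for ethanol + stress, 1 to 2 for the interaction. The replicate block changed no other count by over 1.5 times. Same-numbered mice of different groups correlated at -0.17 to 0.16 in their deviations from the group means, above 0.1 in 1 of 18 pairs. Mice of different numbers spanned -0.33 to 0.34. No pairing by number was seen, but these correlations cannot exclude a shared litter or batch behind the numbers. The minimum of 1 TPM left 25 of the 54 member transcripts and 34821 of 59066 transcripts to be tested. The cause of the other changes was not tested. Depth limits the transcripts of a few read pairs, where 1 read pair more or less moves a log2 value.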
